A study of Mus musculus with 27 samples.

Results

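DNA methylation of hepatocytes, the cells that carry out most of the liver's metabolism, was compared between the inbred mouse strains CAST/EiJ and PWK/PhJ. The comparison used the 3 samples labelled CAST/EiJ (replicates 1, 4 and 5) and the 3 samples labelled PWK/PhJ (replicates 1, 2 and 3), 6 of the 27 samples of the study. All 6 were hepatocytes from liver of female mice aged 12 weeks, and the labels name no treatment and no engineered allele and call the samples biological replicates. The study profiled 9 inbred strains, with 3 samples each, to relate genetic variation between strains to epigenetic marks. The other 7 strains (129S1/SvImJ, A/J, C57BL/6J, DBA/2J, NOD/ShiLtJ, NZO/HlLtJ and WSB/EiJ), with 21 samples, took no part in choosing the differing regions of the main comparison and were used to place them. They also entered the counts of listed positions and some alternative settings, and WSB/EiJ was compared with each of the 2 strains. Each strain is a single inbred line, so a difference between strains is a difference between 2 lines and not between subspecies at large.

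CAST/EiJ was derived from wild mice of the subspecies Mus musculus castaneus, and PWK/PhJ from wild mice of Mus musculus musculus. WSB/EiJ was derived from wild Mus musculus domesticus, the subspecies that contributed most of the genome of the laboratory strains. In mammals, cytosines are methylated mainly where a guanine follows (CpG). Dense clusters of CpGs at gene starts are usually unmethylated, most CpGs elsewhere are highly methylated, and regions that act as enhancers often lie between these states. A CpG is also a site of frequent mutation, because a methylated cytosine that is deaminated becomes thymine, so strains that separated long ago differ in which CpGs they have.

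Reduced representation bisulfite sequencing (RRBS) reads fragments cut by an enzyme at CCGG, and so favours CpG-rich sequence. The deposited lists give a percent methylation per position and no coverage; how many reads stand behind a value is therefore unknown. The CAST/EiJ samples listed 2969433, 3006437 and 3126017 positions, and the PWK/PhJ samples listed between 3019583 and 3084495. In all 6 files 2154007 positions were listed, of which 78.6% were also listed in all 27. Over these positions the correlation (Pearson's r, across positions, which are not independent replicates) was 0.951 to 0.959 between CAST/EiJ samples, 0.952 to 0.956 between PWK/PhJ samples and 0.938 to 0.950 between the strains.

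The cell label was checked at the starts of marker genes, where a low level is usual for an active gene. Of 12 hepatocyte markers, 3 had enough listed positions, and all had low means. Apoa2, an apolipoprotein, had 0.509% in CAST/EiJ and 1.03% in PWK/PhJ. Fgb, a fibrinogen chain, had 2.04% and 4.36%, and Hnf4a, a hepatocyte transcription factor, had 4.43% and 15.3%. Cholangiocyte markers were higher, with Krt7 at 36.1% and 27.3%, Epcam at 64.3% and 55.7%, and Spp1 at 46.7% and 56.7%. Stellate cell markers spanned 0.765 to 16.7% in CAST/EiJ and 0.655 to 17.8% in PWK/PhJ, and the endothelial markers Kdr and Tek were at 2.52% and 36.1% in CAST/EiJ and at 1.82% and 41.2% in PWK/PhJ. A low level at a CpG-rich start does not show that a gene is active, and no Kupffer cell or lymphocyte marker had enough positions. None of the 85 tested tiles within 2 kb of the genes on the 6 marker lists differed between the strains by the rule given next, by which 1.89% of all tested tiles differed, so that a count of 0 says little about these genes. At an unadjusted p under 0.05 (limma) 17 of the 85 differed, beside 18.7% of all tested tiles.

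Positions were averaged in tiles of 1 kb with at least 5 listed positions, and the 70797 tiles whose mean over the 6 samples lay at least 2.5 points from 0 and from 100% were tested with limma. To be called, a tile needed strain means at least 25 percentage points apart and a p under 0.05 after Benjamini-Hochberg adjustment. By this rule 1341 tiles differed, which is 1.89% of those tested. Of these, 563 (0.795% of those tested) had the higher level in CAST/EiJ and 778 (1.10%) in PWK/PhJ, so that 58.0% of the differing tiles were higher in PWK/PhJ. The 3 CAST/EiJ samples lay all above or all below the 3 PWK/PhJ samples in all 1341, and the same held for 24.8% of all tested tiles. The median size of a difference was 34.7 points, beside a median SD within a strain of 4.21 points in CAST/EiJ and 4.18 points in PWK/PhJ. More calls were higher in PWK/PhJ than in CAST/EiJ on 17 of 19 autosomes, and the exceptions, chromosomes 9 and 17, had 27 against 32 and 35 against 39.

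Most differences were partial. In 214 tiles the strains lay at least 50 points apart, 87 of them higher in CAST/EiJ and 127 in PWK/PhJ. In 44 tiles the level was under 20% in a strain and over 80% in the other, with 17 high in CAST/EiJ and 27 high in PWK/PhJ. In 434 tiles (32.4%) both strains lay between 20 and 80%. How far the positions of a tile shared its difference varied. In the median called tile 66.7% of positions lay at least 25 points apart in the tile's direction, in 198 tiles every position did, and in 188 under 50% did. In 19 tiles a position was at least 25 points apart the other way. At least 1 position was called in the test of single positions in 727 of the 1341 tiles.

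Neighbouring called tiles mostly had the same direction. There were 42 runs of adjacent called tiles, with 88 tiles in all, and 45 of 46 adjacent pairs had the same direction. Called tiles were spread over the genome: the share ranged from 1.48 to 2.31% over the autosomes, and was 1.93% over all autosomal tiles and 0.755% (16 of 2120) on the X chromosome. On the Y chromosome, of which these female samples list a few positions, 1 of 21 tiles was called (4.76%). The densest windows of 1 Mb, among 1122 with at least 20 tested tiles, were chr2:75000001-76000000 with 4 of 30 tiles called, chr2:126000001-127000000 with 3 of 23, and chr18:64000001-65000000 with 4 of 36. The calls in the second of these lay at Gabpb1, a subunit of the transcription factor GABP, at Hdc, the histidine decarboxylase that makes histamine, and at Gm26697, and all were higher in PWK/PhJ.

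Of the differing tiles, 1147 had a level in all 7 other strains. A strain was said to stand apart when all 7 others lay on the far side of the midpoint between CAST/EiJ and PWK/PhJ. CAST/EiJ stood apart in 301 tiles (26.2%), so that there PWK/PhJ carried the level of the others, and PWK/PhJ stood apart in 314 (27.4%), so that there CAST/EiJ carried it. The remaining 532 (46.4%) were divided, with some strains on each side. The plot of differing tiles by the number of strains on each side has its highest bars at the ends, with 301 and 314 tiles, and 64 to 133 tiles at each count between. With a stricter rule, by which all 7 had to be within 15 points of a strain and at least 25 from the other, 118 tiles had CAST/EiJ apart and 136 had PWK/PhJ apart. Placed by the median of the 7 strains alone, 544 tiles had it on the PWK/PhJ side and 603 on the CAST/EiJ side.

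**Figure D1:**
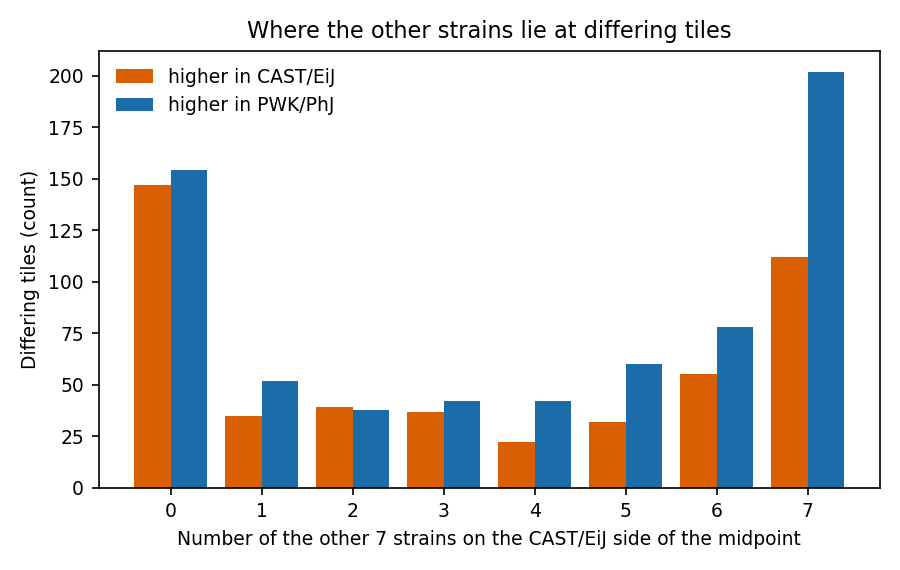
Bars count the differing tiles (y axis) by how many of the other 7 strains lie on the CAST/EiJ side of the midpoint (x axis), for tiles higher in CAST/EiJ (orange) and in PWK/PhJ (blue). At 0 strains CAST/EiJ stood apart, with 147 tiles higher and 154 lower in it; at 7 strains PWK/PhJ stood apart, with 202 higher and 112 lower in it.

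The direction was counted within each class. Where CAST/EiJ stood apart, it was higher in 147 tiles and lower in 154. Where PWK/PhJ stood apart, it was higher in 202 tiles (64.3%) and lower in 112. The difference between these splits was not tested, since tiles are not independent samples. The class rule puts the 7 strains on one side, so their distances describe the classes and are no separate result. The mean of the 7 strains had a median gap of 3.60 to 4.73 points to the strain of the pair on their side. Its median gap to the strain apart was 36.6 to 38.8 points. Single strains among the 7 could lie further from the strain on their side than their mean did.

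**Figure D2:**
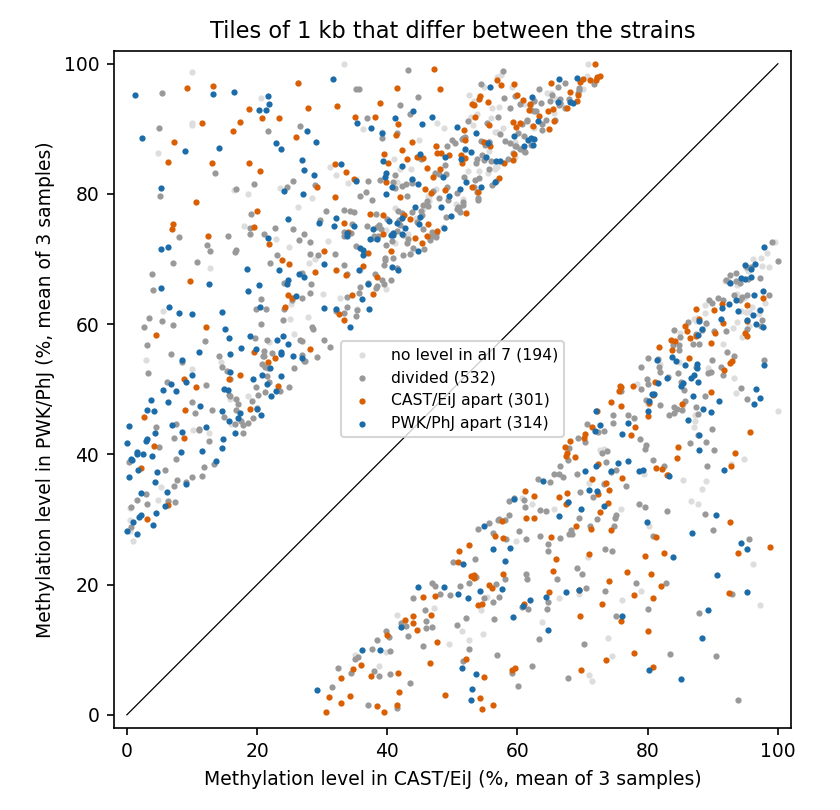
Each point is a differing tile, with its mean level over the 3 CAST/EiJ samples (x axis, percent) and over the 3 PWK/PhJ samples (y axis, percent), coloured by class. The empty band along the diagonal is the minimum difference of 25 points, and points of each class lie on both sides of it.

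Among the 532 divided tiles A/J lay on the PWK/PhJ side most often, in 291 (54.7%). The other 6 strains lay there in 221 to 258, fewest for WSB/EiJ. A/J was also most often the only strain on the PWK/PhJ side (38 tiles, against 9 to 24 for the others), and WSB/EiJ most often the only strain on the CAST/EiJ side (31 tiles, against 4 to 15). These counts describe the tiles and were not tested.

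The largest differences of each class inside genes were as follows, and the gene table gives gene spans without exons, so that exon or intron is not stated. In Lnx2, an E3 ubiquitin ligase, the tile chr5:147031001-147032000 had 7.82, 11.7 and 8.07% in CAST/EiJ and 98.1, 97.2 and 93.6% in PWK/PhJ (adjusted p = 4.34e-04, limma). The other 7 strains had 90 to 95.4%, so that the low level was found in CAST/EiJ. Low levels in CAST/EiJ only, among the 9 strains, were also found in Cacna1c, a calcium channel subunit (chr6:118737001-118738000, 7.23% ± 4.94 against 88.0% ± 2.00), and in Mier3 (chr13:111711001-111712000, 11.6% ± 5.41 against 90.9% ± 4.11; SD, n = 3 each). Trio, a guanine nucleotide exchange factor, and Dnmbp, another such factor, had 18.8% ± 14.3 against 93.1% ± 3.01 and 17.4% ± 5.37 against 91.1% ± 2.43. Tram1, a protein of the translocation channel of the endoplasmic reticulum, was the exception among the 6, with 100, 97.7 and 98.8% in CAST/EiJ, 19.6, 38.2 and 19.6% in PWK/PhJ and 10.1 to 27.5% in the other strains.

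Where PWK/PhJ stood apart, Tada2a, an adaptor of histone acetyltransferase complexes, had between 1.65 and 2.81% in CAST/EiJ and 91.7, 88.9 and 85.4% in PWK/PhJ (chr11:84115001-84116000, adjusted p = 4.34e-04, limma). The other 7 strains had at most 6.18%. Ubxn4, which acts in degradation of proteins of the endoplasmic reticulum, had 16.4% ± 3.83 against 95.7% ± 1.43, with 10.9 to 18.4% in the others, and Dop1b had 13.3% ± 7.34 against 95.3% ± 5.46. The reverse was found in Ptpn3, a tyrosine phosphatase, with 83.6, 81.7 and 89.8% in CAST/EiJ and 5.78, 5.26 and 5.34% in PWK/PhJ, beside 81.8 to 93.4% in the others (chr4:57268001-57269000). Zfp704 and Ap3b1, a subunit of the AP-3 vesicle adaptor, were likewise low in PWK/PhJ, at 11.7% ± 2.58 against 88.3% ± 1.89 and at 18.9% ± 6.01 against 95.2% ± 1.31.

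In Zcchc14 the 7 strains lay between, at 40.7 to 83.3%, with CAST/EiJ at 5.34% ± 1.91 and PWK/PhJ at 95.6% ± 4.19 (chr8:121627001-121628000). In Gsk3b, a kinase of insulin and Wnt signalling (21.7% ± 9.63 against 89.7% ± 3.39), 6 of the 7 had 26.3 to 41.9%, on the CAST/EiJ side, and A/J had 61.0%. In Kirrel3 (82.7% ± 4.77 against 20.2% ± 9.90) the 7 strains had 11.6 to 76.3%, and in Ccdc170 (3.84% ± 2.78 against 67.7% ± 8.47) they had 16.7 to 69.9%, in each case reaching past the PWK/PhJ mean. At Syne4 and Alkbh6, by contrast, the strains fell on 2 sides: A/J and DBA/2J, with 79.1 and 77.7%, lay with CAST/EiJ (83.4% ± 8.03), and the other 5, with 1.97 to 7.12%, lay with PWK/PhJ (9.27% ± 5.54; chr7:30314001-30315000, adjusted p = 2.85e-03, limma). The tile in Ablim1, an actin-binding protein, lost its call without CAST/EiJ replicate 5 or PWK/PhJ replicate 3, at 71.5 and 73.1 points.

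**Figure D3:**
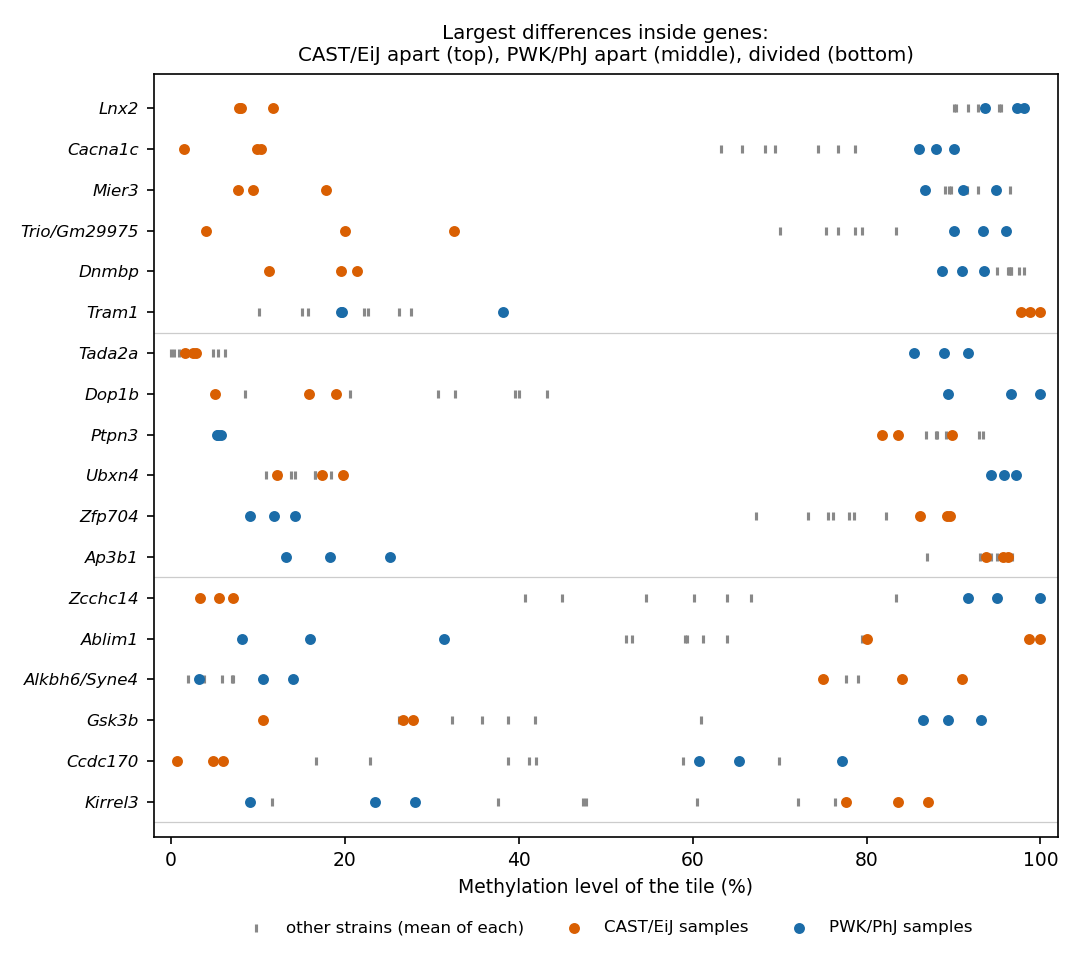
Methylation level of a tile (x axis, percent) for the 6 largest differences of each class inside protein-coding genes (rows), with each CAST/EiJ sample (orange), each PWK/PhJ sample (blue) and the mean of each other strain (grey ticks). In the top rows all ticks lie on the blue side of the midpoint between the strain means, and in the middle rows on the orange side. In the bottom rows they lie on both sides of the midpoint.

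The largest difference of all lay outside genes, at chr17:32100001-32101000, 8578 bp from the pseudogene Pdxk-ps. CAST/EiJ had 1.81, 0.975 and 0.828%, and PWK/PhJ had 94.3, 95.7 and 95.5%, a difference of 93.9 points over 21 positions (adjusted p = 1.23e-04, limma). All 21 positions were at least 25 points apart, and the other 7 strains had 0.397 to 1.14%. The largest difference in the other direction, chr15:31168001-31169000, also overlapped no gene. There CAST/EiJ had 96.1, 90.7 and 94.8% and PWK/PhJ had 2.24, 2.32 and 2.05%. Only 129S1/SvImJ, with 3.57%, lay with PWK/PhJ, and the other 6 strains had 82.0 to 95.7%. The tile chr3:138273001-138274000 overlapped the long noncoding RNA gene Gm40156 and lay 3585 bp from the start of the alcohol dehydrogenase gene Adh1. There CAST/EiJ had 0, 20 and 10% and PWK/PhJ had 100, 96.0 and 100%, and only 5 of the other strains had a level. In a tile that overlapped Tm4sf1, a membrane protein, and the pseudogene Gm5276, CAST/EiJ had 97.3% ± 0.330 and PWK/PhJ 16.9% ± 8.13. Of the other strains only A/J (17.1%), DBA/2J (5.27%) and WSB/EiJ (75.8%) had a level in that tile. At chr16:90737001-90738000, 207 bp from Mrap, an accessory protein of the corticotropin receptor, CAST/EiJ had 90.5% ± 6.38 and PWK/PhJ 9.02% ± 4.85, and of the other strains only DBA/2J, with 8.12%, lay with PWK/PhJ. At chr2:121444001-121445000, 1400 bp from Ell3, an elongation factor of transcription, CAST/EiJ had 4.94% ± 4.28 and PWK/PhJ 90.2% ± 2.25, with C57BL/6J and NOD/ShiLtJ on the PWK/PhJ side.

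At gene starts most of the differing tiles were higher in PWK/PhJ. Starts were known for 17492 of 21887 protein-coding genes. Of 5767 tested tiles within 500 bp of such a start, 81 differed (1.40%), beside 1260 of 65030 further away (1.94%). Tiles near starts that were not known were counted as further away, unless a known start also lay within 500 bp. At starts 21 tiles (0.364% of those tested) were higher in CAST/EiJ and 60 (1.04%) in PWK/PhJ, so that 74.1% were higher in PWK/PhJ. Further away 542 tiles (0.833%) were higher in CAST/EiJ and 718 (1.10%) in PWK/PhJ. Where PWK/PhJ stood apart at a start, it was the higher strain in 28 of 32 tiles; where CAST/EiJ stood apart, it was the higher in 10 of 15. In 42 of the 81 the lower strain was under 20%, and PWK/PhJ was the higher strain in 31 of these. The difference between the shares at starts and elsewhere was not tested. Before testing, the filter on the tile mean dropped tiles that were almost unmethylated in both strains. A tile unmethylated in a single strain was kept only where the other strain was high enough. The shares are therefore over tiles chosen partly by the difference itself, and they do not rank starts against other tiles.

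Among the genes listed for lipid and cholesterol synthesis, the start of Mvk, which lies beside that of Mmab, was called. Mvk encodes mevalonate kinase, an enzyme of cholesterol synthesis, and Mmab an enzyme of vitamin B12 metabolism, and the genes start 242 bp apart on opposite strands. The 250 bases before each of 3 starts are shown from the RefSeq promoter table (GRCm38.p6), each on the strand of its gene, with capitals at the CpGs whose listed positions differed by at least 25 points. They show where the positions with a difference lie in the sequence: Mvk at chr5:114444019-114444268 (+ strand), Sfrp2 at chr3:83766071-83766320 (+ strand) and Tnfsf14 at chr17:57194182-57194431 (- strand). In the stretches of Mvk and Sfrp2 every position listed in all 6 files differed by at least 25 points. No CpG in small letters there was listed in all 6 files. In that of Tnfsf14 a listed CpG in small letters differed by less.
Mvk: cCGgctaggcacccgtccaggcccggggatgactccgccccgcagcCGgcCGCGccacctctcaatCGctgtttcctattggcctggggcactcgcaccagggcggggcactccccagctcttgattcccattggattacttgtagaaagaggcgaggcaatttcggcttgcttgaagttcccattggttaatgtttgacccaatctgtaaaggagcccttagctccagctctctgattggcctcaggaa
Sfrp2: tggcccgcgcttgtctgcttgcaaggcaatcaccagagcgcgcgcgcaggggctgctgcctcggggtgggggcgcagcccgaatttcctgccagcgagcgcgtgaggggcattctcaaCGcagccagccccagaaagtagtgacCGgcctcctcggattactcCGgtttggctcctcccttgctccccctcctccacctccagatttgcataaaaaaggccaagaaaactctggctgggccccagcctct
Tnfsf14: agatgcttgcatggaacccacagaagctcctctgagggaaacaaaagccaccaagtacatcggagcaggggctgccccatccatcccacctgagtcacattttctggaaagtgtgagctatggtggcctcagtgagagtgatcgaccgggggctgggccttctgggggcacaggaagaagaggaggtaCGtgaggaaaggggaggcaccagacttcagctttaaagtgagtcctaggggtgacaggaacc

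The tile over the Mvk start, chr5:114444001-114445000, had 0.542, 0.435 and 0.157% in CAST/EiJ and 43.2, 46.9 and 42.9% in PWK/PhJ, a difference of 43.9 points (adjusted p = 4.63e-04, limma). The groups did not overlap, and the other 7 strains had 0.101 to 2.96%, the level of CAST/EiJ. Of the tile's 49 positions, 42 were at least 25 points higher in PWK/PhJ. The next tile, which holds 5 positions at the 5′ end of Mmab, had 0% in all 3 CAST/EiJ samples and 37.4, 36.2 and 51.6% in PWK/PhJ. In the Mvk sequence above, 5 of 13 reference CpGs are in capitals and the other 8 were not listed, so that the place of the capitals shows what was listed and not an edge of the difference. Past the start, positions differed as well.

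Sfrp2, a secreted modulator of Wnt signalling, had the longest run of called tiles, chosen for description after its values were seen. Its 4 adjacent tiles from chr3:83764001 to 83768000 had PWK/PhJ means of 34.0, 39.3, 46.8 and 71.6% and CAST/EiJ means of 2.11, 0.563, 3.11 and 5.25%. In the tile with the start, over 103 positions, CAST/EiJ samples had 2.35, 3.25 and 3.72% and PWK/PhJ samples 45.2, 49.4 and 45.8% (adjusted p = 5.79e-04, limma), and 84 positions were at least 25 points apart. In each of the 4 tiles the other strains lay with CAST/EiJ, the highest at 7.22%.

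Tnfsf14, a cytokine of the tumour necrosis factor family, showed the reverse. The tile chr17:57194001-57195000 had 77.2, 83.5 and 78.0% in CAST/EiJ and 24.7, 24.1 and 24.5% in PWK/PhJ (adjusted p = 9.19e-04, limma), and the other 7 strains had 25.6 to 38.1%. In this start CAST/EiJ was the strain apart. Ranbp3l had the same pattern, with 69.5% ± 2.25 against 19.1% ± 3.51 and 3.65 to 10.9% in the other strains.

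**Figure D4:**
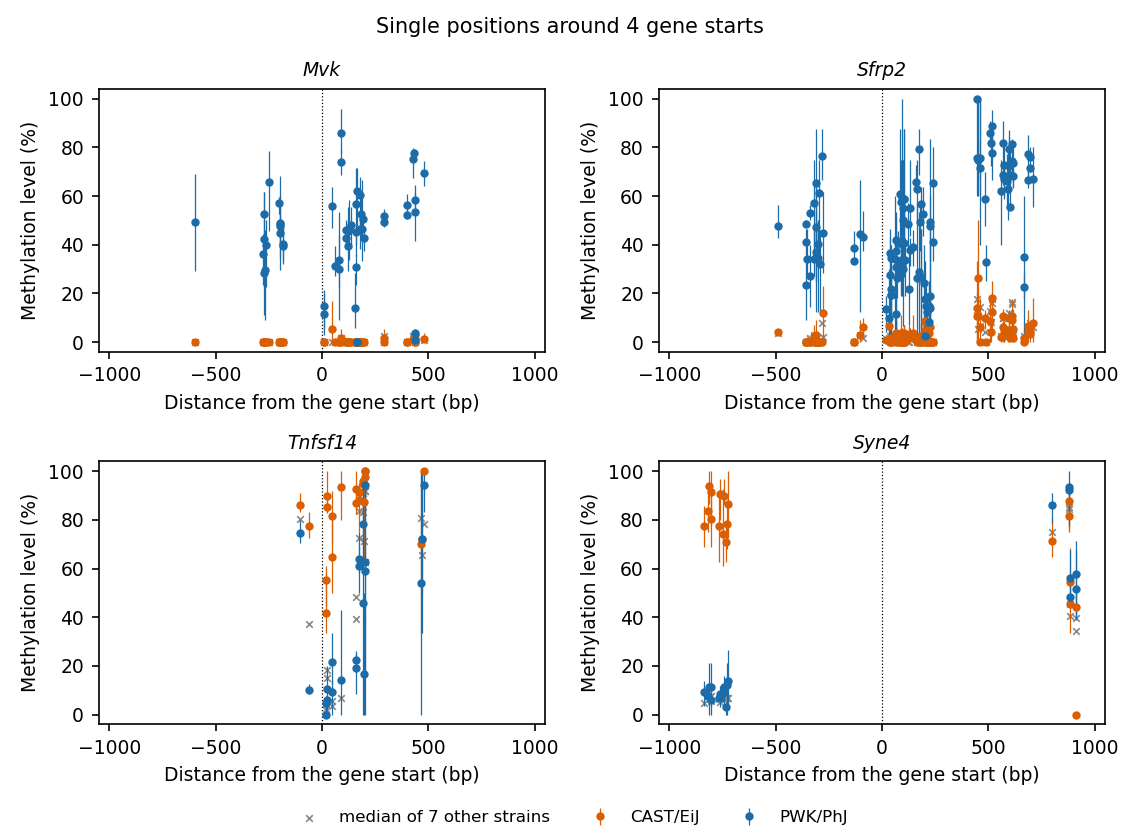
Points are single positions listed in all 6 files, within 1000 bp of 4 gene starts, by distance from the start (x axis, base pairs, in the direction of transcription) and methylation level (y axis, percent), as the mean of 3 samples with bars from the lowest to the highest sample. At Mvk 47 of 54 positions and at Sfrp2 95 of 115 were at least 25 points higher in PWK/PhJ, and at Tnfsf14 15 of 22 were at least 25 points higher in CAST/EiJ. At Syne4 12 of 19, all at -834 to -723 bp from the start, were at least 25 points higher in CAST/EiJ and 1 in PWK/PhJ, and no position within 500 bp of the start was listed.

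Other tiles within 500 bp of a start also had large differences. Zfp811 had 7.99% ± 2.05 in CAST/EiJ and 61.7% ± 9.04 in PWK/PhJ, with 3.54 to 15.2% in the other strains. Near Zfp872 the CAST/EiJ samples were uneven, at 21.7, 61.4 and 23.8%, beside 93.6 to 98.2% in PWK/PhJ, and only NOD/ShiLtJ (8.25%) of the other strains lay with CAST/EiJ. The 3 listed positions of the promoter window of Zfp872 itself, from 250 bases before to 50 after its start, had 0% in CAST/EiJ and 12.6% ± 2.81 in PWK/PhJ. The tile 300 bp from Mrps24, a mitochondrial ribosomal protein, had 19.5% ± 5.61 and 81.5% ± 6.62, and only NZO/HlLtJ, with 9.43%, and 129S1/SvImJ, with 47.3%, lay with CAST/EiJ. The 4 listed positions of the promoter window of Mrps24 were at 0% in all 6 samples. Gm14325 had 10% ± 2.75 and 90.6% ± 0.646, and of the other strains only DBA/2J (55.6%) and WSB/EiJ (15.3%) had a level. In the promoter windows of Gm14325 and Zfp811 no position was listed in all 6 files. Apoa4, an apolipoprotein of liver and intestine, had 33.9, 30.1 and 38.9% in CAST/EiJ and 75.4, 81.6 and 74.9% in PWK/PhJ, with 35.2 to 56.1% in the others. Dmc1, a recombinase of meiosis, had 6.81% ± 2.61 and 50.8% ± 12.6 and was placed with PWK/PhJ apart. Apoa4, Dmc1 and Ranbp3l were named after their values were seen.

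The genes of lipid and cholesterol synthesis held 7 called tiles of 122 tested within 2 kb of a listed gene (5.74%, beside 1.89% of all tested tiles), at 5 of 23 genes. Of the 7, 2 were higher in CAST/EiJ and 5 in PWK/PhJ, and the median difference over the 122 tiles, CAST/EiJ minus PWK/PhJ, was -0.40 points, beside -0.12 over all tested tiles. Besides the pair of tiles at Mvk, Srebf2, the transcription factor of the enzymes of cholesterol synthesis, had a tile at 51.3% ± 6.93 and 85.4% ± 10, and a further called tile near it lay inside Shisa8. Ppara, a nuclear receptor of fatty acid oxidation, was higher in CAST/EiJ, at 59.3% ± 8.58 against 15% ± 8.33, and its call was lost without CAST/EiJ replicate 4 or 5 or PWK/PhJ replicate 3 and with the median over positions. In those settings the difference was 41.2 to 47.7 points. Elovl6, a fatty acid elongase, was also higher in CAST/EiJ, at 96.5% ± 0.970 against 69.2% ± 5.81. In all 7 tiles PWK/PhJ was the strain apart.

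The hepatocyte list held 3 called tiles of 69 (4.35%, beside 1.89% of all tested tiles). Of the 3, 2 were higher in CAST/EiJ and 1 in PWK/PhJ, and the median difference over the 69 tiles was -1.38 points. Nr5a2, a nuclear receptor of bile acid and cholesterol metabolism, had 69.6, 75.0 and 72.4% in CAST/EiJ and 27.1, 33.7 and 40.8% in PWK/PhJ, and the others had 11.2 to 38.8% (chr1:136912001-136913000, adjusted p = 6.54e-03, limma). Near Foxa1, a factor that opens chromatin in liver, the tile had 55.6% ± 5.02 and 29.5% ± 2.41. In Prox1, a homeobox factor of liver development, it had 13.4% ± 5.43 and 38.5% ± 0.694. Both of these lay close to the 25-point minimum, at 26.1 and 25.1 points. The call at Foxa1 was lost without any of 5 samples in turn (all but CAST/EiJ replicate 1), at a difference of 23.7 or 24.7 points in 2 of them and of at least 25.7 points in 3, and that at Prox1 without any of 5 (all but CAST/EiJ replicate 4), at -25.5 to -22.4 points, and with the median over positions, at -20.3 points.

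Among drug metabolism genes 5 of 140 tiles differed (3.57%, beside 1.89% of all tested tiles). Of the 5, 1 was higher in CAST/EiJ and 4 in PWK/PhJ, and the median difference over the 140 tiles was -0.46 points. At Cyp26c1, a cytochrome P450 that breaks down retinoic acid, lay 3 of the 5. The largest of them, 321 bp from its start, had 54.9, 56.5 and 44.1% in CAST/EiJ and 89.1, 92.6 and 87.7% in PWK/PhJ. There the other 7 strains had 82.0 to 92.7%, so CAST/EiJ was apart. The 6 listed positions of the promoter window of Cyp26c1 had 87.2% ± 1.12 in CAST/EiJ and 86.5% ± 8.63 in PWK/PhJ, and none was 25 points apart. Cyp4f13, of a family that oxidises fatty acids, had 37.8, 40.5 and 36.9% in CAST/EiJ, 2.19, 0 and 1.89% in PWK/PhJ and at most 11% in the others. Gstm3, a glutathione transferase, had 19.4% ± 6.93 and 51.5% ± 4.57 at its start, with PWK/PhJ apart.

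In the other lists, zinc finger genes held 15 called tiles of 709 (2.12%, near the 1.89% of all tested tiles). Of the 15, 7 were higher in CAST/EiJ and 8 in PWK/PhJ, and the median difference over the 709 tiles was -0.28 points. Besides those named above, Zfp982 had 24.6% ± 2.64 in CAST/EiJ and 81.1% ± 3.86 in PWK/PhJ, and the 7 other strains spanned 4.73 to 81.5%. Imprinted genes, at which the parental copies differ in methylation, held 2 of 138 (1.45%; median difference 0.33 points). Both lay at Slc38a4, an amino acid transporter, 16359 and 10956 bp from the nearest of its known starts, which was not the same start for both. Whether either tile lies in a region where the parental copies differ was not tested. The tile chr15:97003001-97004000 had 10.5, 15.7 and 0.641% in CAST/EiJ and 46.1, 43.3 and 50.9% in PWK/PhJ, with 32.2 to 57.4% in the other strains. This call was lost with an offset of 1, and without CAST/EiJ replicate 1 or any PWK/PhJ replicate, while the difference stayed between -39.6 and -35.8 points in those settings. The second tile, chr15:97044001-97045000, had 3.15% ± 1.96 and 32.3% ± 2.58, but only 2 of its 7 positions were at least 25 points apart. With the median over positions in place of the mean its difference was -7.34 points and was not called. None of 66 tiles at DNA methylation writers and erasers (median difference -0.17 points) and none of 21 at major histocompatibility genes (-2.14 points) was called. Beside 1.89% of all tested tiles, a count of 0 among so few tiles says little about these genes.

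Averaged over all positions listed in the 6 files, the level was 35.0% in each CAST/EiJ sample and 35.2 to 35.4% in the PWK/PhJ samples. The means, 35.0% ± 0.0296 and 35.3% ± 0.113 (SD, n = 3 each), differed by -0.27 points, and the groups did not overlap (exact permutation test, two-sided, p = 0.1, the smallest p that 3 against 3 allows). On the X chromosome of females, where a copy is inactivated in each cell and carries methylation at many starts, more positions have an intermediate level. The share of X positions between 20 and 80% exceeded the autosomal share by 23.4, 22.4 and 21.7 points in CAST/EiJ and by 26.8, 25.4 and 26.0 points in PWK/PhJ. The difference of the means was -3.55 points (exact permutation test, two-sided, p = 0.1), with no overlap of the groups.

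Single positions were tested as well, and 6609 of 1005358 differed (0.657%), with 2969 (0.295%) higher in CAST/EiJ and 3640 (0.362%) in PWK/PhJ. The median size was 68.2 points, larger than for tiles. The count of positions rested on all 6 samples: with a sample left out it fell to between 703 and 851. The lowest followed from leaving out CAST/EiJ replicate 4.

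The strains also differed in which positions were listed. A set of 326190 positions was shared by the 3 CAST/EiJ lists and absent from the 3 PWK/PhJ lists, and a set of 320069 was shared by the PWK/PhJ lists and absent from the CAST/EiJ lists. Of the former, 21.7% were listed in all 21 samples of the other strains, so that they were missing from PWK/PhJ alone, and 31.8% in none of them. Of the latter, 22.6% were missing from CAST/EiJ alone and 28.3% were listed in no other strain. The parts of coverage and of sequence in this were not tested over the whole genome.

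In the promoter windows, from 250 bases before to 50 after a gene start, the reference sequence showed whether a listed position is a CpG, a check that was added after the values were seen. Of the positions listed in all 3 samples of a strain, 1.53% in CAST/EiJ and 1.51% in PWK/PhJ did not lie on a reference CpG. The share was 0.0466% in C57BL/6J, the strain of the reference genome, 0.624% in WSB/EiJ and 0.458 to 0.493% in the other 5 strains. Among positions listed in CAST/EiJ and in no other strain, 1387 of 2688 (51.6%) lay off the reference CpGs, and for PWK/PhJ 1272 of 2727 (46.6%). These positions are by definition absent from the C57BL/6J samples, in which nearly all listed positions lie on reference CpGs.

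**Figure D5:**
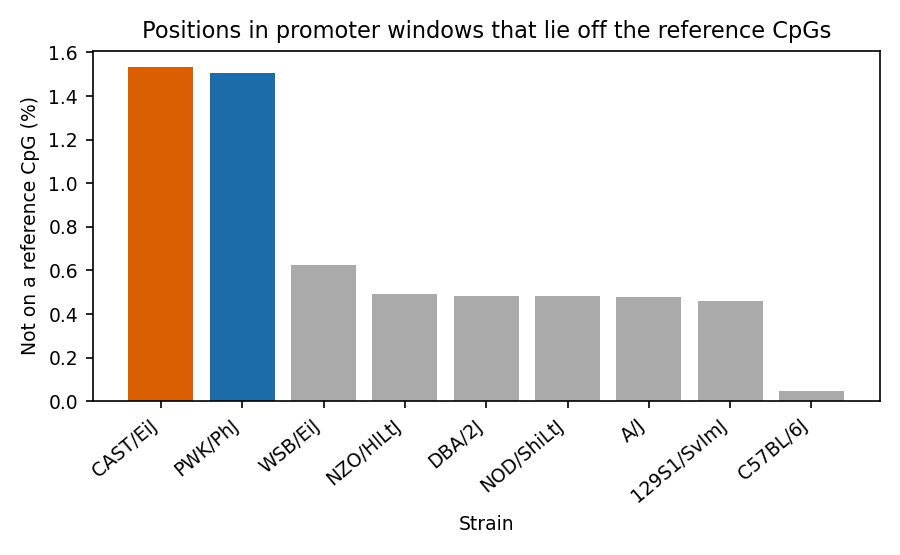
Bars give the share of positions listed in all 3 samples of a strain, within promoter windows, that do not lie on a CpG of the reference sequence (y axis, percent), by strain (x axis). CAST/EiJ (1.53%) and PWK/PhJ (1.51%) stand above WSB/EiJ (0.624%), the 5 strains at 0.458 to 0.493% and C57BL/6J (0.0466%).

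Among pairs of adjacent positions listed in a single strain, those not reading CG in the reference most often read CA or TG, a single transition away. These were 273 of 489 pairs (55.8%) for CAST/EiJ and 240 of 469 (51.2%) for PWK/PhJ. The 489 and 469 include 16 and 37 pairs that read GC, which can be bases of 2 neighbouring CpGs. The reference windows of 4 of the CA or TG pairs are shown, on the gene's strand. The 2 bases listed as methylation calls in the strain are in capitals, and the bases around them are those of the reference. For CAST/EiJ they lie before Ankra2 (chr13:98262995-98263036, + strand) and Atg101 (chr15:101284150-101284191, + strand), and for PWK/PhJ before Ifit2 (chr19:34550880-34550921, + strand) and Mvd (chr8:122443455-122443496, - strand).
Ankra2: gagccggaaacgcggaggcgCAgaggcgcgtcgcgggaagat
Atg101: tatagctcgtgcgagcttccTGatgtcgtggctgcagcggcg
Ifit2: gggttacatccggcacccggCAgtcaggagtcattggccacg
Mvd: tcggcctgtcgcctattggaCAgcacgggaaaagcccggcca
The level at these pairs was 0.758% at Ankra2, 0% at Atg101, 0.926% at Ifit2, an interferon-induced gene, and 0% at Mvd, the mevalonate decarboxylase of cholesterol synthesis.

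Positions missing from a strain had a higher mean level, in the strain that listed them, than positions listed in both. Only positions with others listed in all 6 files within 50 bp on each side were compared, and CpG density was not matched. Those missing from PWK/PhJ alone had a mean level of 31.5% in CAST/EiJ, and those missing from CAST/EiJ alone had 33.8% in PWK/PhJ. The 1322741 flanked positions listed in all 6 files had 17.0%, a mean over the 6 samples of both strains. Levels over 80% were found at 27.4% and 29.4% of the missing positions and at 13.7% of the others. These shares are over positions and were not tested.

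Each strain was also set beside WSB/EiJ, the third wild-derived strain. By the same rule CAST/EiJ and WSB/EiJ differed in 1399 of 70777 tiles (1.98%), of which 898 were higher in CAST/EiJ, and PWK/PhJ and WSB/EiJ in 1611 of 71615 (2.25%), of which 1100 were higher in PWK/PhJ. These comparisons share samples with the main one, and the differences between them were not tested.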

How the data were processed

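Per the labels' protocols, hepatocyte DNA was cut with MspI, bisulfite-treated and amplified. The submitters' processing notes name Trim Galore 0.6.3, Bowtie2, Bismark 0.22 and the build GRCm38 (mm10), without parameters; a coverage minimum and the use of strain genomes are not given in the sources used here. The authors deposited a percent methylation per position for each sample, with no coverage, so depth is unknown and no counting intervals are given. Both strands of a CpG are separate positions.

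Samples were grouped by labelled strain. Tile means (1 kb, 5 or more positions shared by the 6 files) were put on the scale log2((percent + 5)/(100 - percent + 5)) and tested with limma 3.58.1 (R 4.3.3) over the 6 samples, as were single positions; the test was tested on simulated data. Values given once per sample were compared by exact permutation tests. Mitochondrial positions were left out. Levels of other strains needed at least 3 positions in at least 2 samples. Gene spans and starts came from RefSeq tables of GRCm38.p6, and 17492 of 21887 protein-coding genes had a start. Scripts used Python 3.11.15, numpy 2.4.6, pandas 2.3.3 and matplotlib 3.10.9.

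Named tiles were the 6 largest differences in each direction, the 6 largest of each class inside protein-coding genes, the 6 largest within 500 bp of a start, up to 3 for each gene list, and the 3 densest windows of 1 Mb; 1 tile that this rule names is not reported here. The samples compared, the lists and the tests were chosen with earlier results of these data known. The alternatives are another offset, scale, tile size, tile average or strand handling, other minimums and filters, positions of all 27 files, and each replicate left out.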

Additional observations from a re-analysis of the deposited data

Results flagged for a closer look

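Positions outside the measurement proper were listed in these female samples. The Y chromosome had a mean of 1257 listed positions in CAST/EiJ and 1619.33 in PWK/PhJ, and the sample ranges, 1156 to 1442 and 1555 to 1686, did not overlap (exact permutation test, two-sided, p = 0.1, the smallest possible). Of 21 Y tiles tested 1 was called (4.76%), higher in CAST/EiJ. The mitochondrial chromosome had a mean of 78 listed positions in CAST/EiJ (88, 86 and 60) and 56.6667 in PWK/PhJ (55, 74 and 41), and the groups overlapped. The source of these positions was not tested.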

How the results depend on the processing

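Of 519 alternative values, 452 kept their call or stayed close, 23 lost a call and 44 moved. None was labelled as reversed, but for most values this was fixed in advance. Counts could not receive that label, and another offset or scale left a tile's difference in points unchanged. Leaving out a sample could not turn the direction of a called tile, since the samples of the 2 strains did not overlap there. A count was taken as close within 1.5 times that reported, and a value with no test within 1 SD. No paired analysis was possible because the strains share only replicate number 1. The count of tiles was 2068 (907 higher in CAST/EiJ) with at least 3 positions, 438 (177 and 261) with at least 10, 788 (337 and 451) with strands averaged, 2983 (1313 and 1670) with a minimum of 10 points, and 214 (87 and 127) with 50. With positions listed in all 27 files 375 were higher in CAST/EiJ. Without each replicate in turn it was 1005 to 1072, of which 938 to 993 were also called with all 6 samples, and the share higher in PWK/PhJ ran from 56.0 to 60.3% over all settings. CAST/EiJ stood apart in 118 tiles and PWK/PhJ in 136 by the stricter rule, and in 544 and 603 by the median of the 7 strains, which leaves none divided. The count of positions was 1912 (871 and 1041) with an offset of 1 and 11374 (5051 and 6323) on the untransformed scale. Without each replicate in turn it was 703 to 851 (318 to 373 higher in CAST/EiJ, 375 to 478 in PWK/PhJ). The excess of intermediate X positions differed by -2.38 points at limits of 10 and 90%. Gene starts had 67 to 70 called tiles without each replicate in turn and 111 within 1 kb. The 41 named tiles were run with an offset of 1, the untransformed scale, the median over positions and each replicate left out. They were not run under the other alternatives. In all of these runs 35 kept their call. The tiles that lost it lie at Slc38a4 (2 tiles), Ppara, Prox1, Foxa1 and Ablim1. Coverage is unknown, and no strain genome was used here, so a base change inside a tile and a change in methylation were not separated.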
